A study of Mus musculus with 37 samples.

Results

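The response of mouse peritoneal macrophages to IL-10 alone was described from the untreated group and the IL-10 group, which together make up 4 of the 37 samples of the series. Transcripts were summed per gene name, and a gene was kept if its value reached 10 in either group, which left 5932 of the 6509 genes held in the table. The cells came from C57Bl6cJ mice with no further genotype given. They were lavaged from the peritoneum after thioglycollate, which draws monocytes into the cavity, and were selected by overnight adherence to plastic. The IL-10 group received 100 ng/ml IL-10 for 4 h and the untreated group received nothing, and neither group received LPS, the endotoxin of Gram-negative bacteria. Each group had 2 libraries from independent mice. Replicate 1 of both groups is described in the labels as a re-analysis of earlier libraries, so that this origin is balanced between the groups. Other groups used for comparison were macrophages given LPS at 100 ng/ml for 4 h, with or without 4 h of IL-10 before it. Mast cells, bone marrow neutrophils and dendritic cells of the spleen (sDCs) were used as well. Each of these was left untreated or given IL-10, LPS, or IL-10 before LPS, at the same doses and times. By the paper's account the neutrophils were first matured overnight with the cytokine GM-CSF, and the mast cells were derived from bone marrow.

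IL-10 is a cytokine that restrains inflammatory gene expression in myeloid cells. It binds a receptor made of Il10ra and Il10rb, which activates the kinases Jak1 and Tyk2 and the transcription factor STAT3, and in macrophages most of its known inhibitory action needs new transcription. Interferons signal through related kinases to other STAT proteins, which bind promoter elements called GAS and ISRE, and the GAS consensus is also bound by STAT3 dimers. Most work on IL-10 in macrophages follows the cytokine during LPS stimulation, whereas the comparison described here has no LPS in either arm.

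For each transcript and group the table holds a single value in normalised counts, which is the authors' mean of the pair of libraries. It carries no SD and no value per library, so that no test, interval or replicate spread can be given, and a change of at least 2-fold on log2(value + 1) is called raised or lowered. The 18 columns share the same highest value of 185338, and in both groups the transcripts at that value belong to Cd68, Lpl and Vim. The summed values of the groups were close, 10640342 untreated and 10656869.5 with IL-10, and the depth behind a value is unknown from the table. Macrophage markers were high in both groups, with Cd68 at 185724.5 and 185681 and Itgam at 29511 and 29918.5 in untreated and IL-10 macrophages. None of the 6 markers held was called. Cd68 has a transcript at the shared highest value in both groups, so its near-equal values cannot show an unchanged macrophage content. Of the neutrophil markers, Ly6g was listed at 0 in both groups and Mpo stood at 1 and 1.5, although Mmp8 stood at 1356 and 1253. Fibroblast and mesothelial markers summed to 13410.5 untreated and 11608 with IL-10, mostly from Col1a2 (9441.5 and 7847), and 1 of the 6, Lum, fell from 23.5 to 6. The 2 eosinophil markers held summed to 50 and 87, the 3 mast cell markers to 168.5 and 201, the 4 dendritic cell markers to 13971.5 and 13370.5, the 5 B cell markers to 133.5 and 106, the 2 T and NK cell markers to 58.5 and 54.5, and the 5 erythroid markers to 632.5 and 667, with none called. The part of such cells in the results was not tested, and in these bulk samples fewer cells of a type cannot be told apart from less RNA per cell.

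IL-10 alone raised 120 genes and lowered 109 of the 5932 kept. The strongest rises at high values were in a family of interferon-inducible GTPases, in Tnfsf14 and Lrg1, and in Trim30b and the interferon transcription factor Irf1. Smaller rises at high values included Casp4, Tgfbi and Arg1. These counts are 2.02% of genes raised and 1.84% lowered, and the median log2 change over all kept genes was -0.04. The balance between the directions depended on the level of the genes. Among the 4886 genes whose higher value was at least 100, 42 were raised (0.86%) and 5 lowered (0.102%). Among the 1046 genes under 100, 78 were raised (7.46%) and 104 lowered (9.94%). Of the 2273 genes with a value of at least 1000, 26 were raised and 0 lowered. The scatter of all genes also widened toward low values, with a median absolute log2 change of 0.628 for values from 10 to 30 and 0.106 at 1000 and above. Of the raised genes, 11 were listed at 0 in untreated cells, and 12 of the lowered genes were listed at 0 with IL-10, and no fold is given for these. The highest of the first kind was Serpina3f, a serine protease inhibitor, at 0 and 65.

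**Figure D1:**
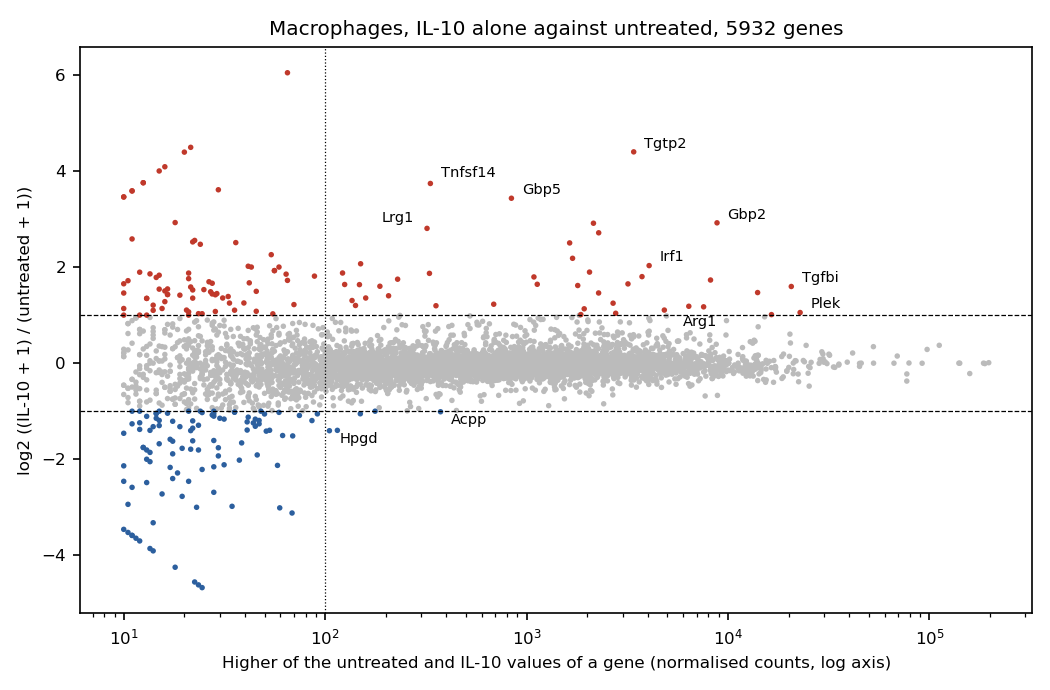
Log2 change with IL-10 alone in macrophages (vertical axis) against the higher of the untreated and IL-10 values of each gene (horizontal log axis, normalised counts). Each point is 1 of 5932 genes, red points are the 120 raised genes, blue points the 109 lowered genes, dashed lines mark 2-fold and the dotted line marks a value of 100, right of which 42 genes were raised and 5 lowered.

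Interferon-inducible GTPases, enzymes that attack the vacuoles of intracellular microbes, were prominent among the raised genes. By symbol, a choice made after the values were seen, 11 genes of the guanylate-binding (Gbp) and immunity-related (Irg) families were held. Of these, 10 were kept and 10 were raised. Tgtp2 rose from 160.5 untreated to 3403.5 with IL-10, a log2 change of 4.40. Its near-identical copy Tgtp1 stood at 5.5 and 36, and the split of reads between the 2 genes is uncertain. Gbp5, a GTPase that also promotes inflammasome assembly, rose from 77 to 841 (log2 change 3.43). Gbp2 rose from 1164.5 to 8823.5, a log2 change of 2.92. Gbp7 rose from 347 to 2281 (2.71 on the log2 scale) and Gbp3 from 288 to 1636.5 (2.50). On chromosome 11, Ifi47 rose from 284.5 to 2148.5 (2.91) and Igtp from 372 to 1692 (2.18). Irgm1 and Irgm2, which regulate the other Irg proteins, rose from 1073.5 to 3742.5 (1.8) and from 585 to 1795 (1.62). Gbp1, at 3 and 8.5, was under the minimum value.

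The wider list of interferon-induced genes was raised in part. Of its 44 genes 29 were held and kept, 12 of these were raised, 0 were lowered and 17 did not pass the limit, with a median log2 change of 0.85. The list shares 6 kept members with the GTPases above, all raised, and of its other 23 kept genes 6 were raised, with a median of 0.80. At a limit of 1.5-fold, which 4.72% of all kept genes passed upward, 20 of the 29 were raised. The list was drawn up with earlier results of these data known, so its direction is no independent evidence. Irf1, a transcription factor that binds interferon-response elements, rose from 993 to 4060 (log2 change 2.03). Stat2, which carries the signal of type I interferons, rose from 1348.5 to 2770 (1.04). Ifit2, which restrains viral translation, rose from 313 to 1088 (1.79), and Zbp1, a sensor of nucleic acids, from 1015.5 to 3188 (1.65). Rtp4 rose from 922.5 to 1860 (1.01). Other members stayed short of the limit, among them Ifit1 at 293 and 511.5, Ifit3 at 314 and 567, Oas1a at 2176 and 2398.5, and Usp18 at 241 and 185.

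Promoters of 6 of these genes are shown, and each holds a GAS match in the 150 bases before its start. The printed set therefore does not stand for genes with ISRE matches only. The 150 bases before the RefSeq start are printed on the GRCm38.p6 build, 5′ to 3′ on the gene's strand. Capitals mark matches to TTCNNNGAA, the GAS form bound by STAT dimers, or to GAAANNGAAA on either strand, the core of the ISRE. The second motif was added after the values were seen. The windows lie at chr11:49064213-49064362 (minus strand) for Tgtp2, chr11:58199406-58199555 (plus strand) for Igtp, chr11:58214827-58214976 (plus strand) for Irgm2, chr3:142530186-142530335 (plus strand) for Gbp7, chr3:142496784-142496933 (plus strand) for Gbp5 and chr11:53769864-53770013 (plus strand) for Irf1.
Tgtp2: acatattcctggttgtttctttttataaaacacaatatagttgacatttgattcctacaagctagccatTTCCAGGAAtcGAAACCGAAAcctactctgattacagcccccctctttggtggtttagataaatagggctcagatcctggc
Igtp: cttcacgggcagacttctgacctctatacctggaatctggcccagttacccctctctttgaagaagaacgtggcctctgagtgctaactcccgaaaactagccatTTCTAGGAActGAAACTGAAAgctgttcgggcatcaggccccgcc
Irgm2: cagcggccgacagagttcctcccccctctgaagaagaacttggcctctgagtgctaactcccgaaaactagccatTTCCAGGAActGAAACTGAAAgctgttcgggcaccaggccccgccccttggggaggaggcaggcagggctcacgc
Gbp7: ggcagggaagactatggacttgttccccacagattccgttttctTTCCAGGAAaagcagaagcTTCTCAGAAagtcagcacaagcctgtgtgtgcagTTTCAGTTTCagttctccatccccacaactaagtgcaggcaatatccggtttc
Gbp5: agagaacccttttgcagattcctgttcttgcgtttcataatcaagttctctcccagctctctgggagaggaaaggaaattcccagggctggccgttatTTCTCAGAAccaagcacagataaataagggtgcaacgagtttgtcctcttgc
Irf1: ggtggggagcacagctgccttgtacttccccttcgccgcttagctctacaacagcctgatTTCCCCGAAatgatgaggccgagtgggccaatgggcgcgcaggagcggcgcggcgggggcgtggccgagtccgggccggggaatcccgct

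In Tgtp2, Igtp and Irgm2 the GAS match began 11 bases before the ISRE match, whereas in Gbp5 and Gbp7 no pair of matches had that spacing. The matches lay 81 and 70 bases before the start in Tgtp2, 45 and 34 in Igtp, and 75 and 64 in Irgm2. Igtp and Irgm2 are neighbours, and their printed windows share a run of 38 identical bases that ends in the opening bases of the GAS match. The windows of Tgtp2 and Irgm2 share a run of 17 bases that holds the whole GAS match, and those of Tgtp2 and Igtp a run of 11. The 3 genes are therefore not separate cases of the spacing. Irf1 held 1 GAS match, 90 bases before the start. Gbp7 held 2, at 106 and 87 bases, and an ISRE match at 53 bases. Gbp2, Gbp3 and Irgm1, which are not printed, held ISRE matches only. They lay at 59 bases in Gbp2, 45 and 39 in Gbp3, and 30 and 24 in Irgm1.

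Over whole RefSeq promoter windows, from 250 bases before to 50 after the start, TTCNNNGAA was present in 9 of the 33 raised genes with a value of at least 100 that have a window (27.3%). It was present in 13 of all 93 raised genes with a window (14%), 5 of 85 lowered genes (5.88%) and 349 of 4808 kept genes (7.26%). GAAANNGAAA was present in 12 of the 33 (36.4%), 17 of the 93 (18.3%), 1 of the 85 (1.18%) and 172 of the 4808 (3.58%). Both motifs together stood in 5 of the 33, whereas 25 of the 4808 (0.52%) had both. The longer spacing, TTC and GAA with 4 bases between them, bound by STAT6, was found in 1 of the 33, 4 of the 93, 11 of the 85 (12.9%) and 264 of the 4808 (5.49%). The windows were matched by symbol or by a single synonym, and a match is a description of the letters and no evidence of binding.

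Many raised genes were neighbours on the chromosome. With positions from GENCODE vM1 on NCBIM37 (mm9 coordinates), 32 of the 120 raised genes (26.7%) had another raised gene within 200 kb between midpoints, whereas 492 of 5927 kept genes (8.3%) had a raised gene that near. For the lowered genes the figures were 6 of 108 (5.56%) and 476 of 5927 (8.03%) with a lowered gene that near. All 4 kept genes between chr3:142159864-142300972 were raised, namely Gbp5, Gbp7, Gbp3 and Gbp2. Irgm1, Tgtp1, Olfr56, Tgtp2 and Ifi47 were 5 of the 8 kept genes between chr11:48675470-48948889, and Igtp and Irgm2 adjoin each other between chr11:58013058-58036282. Related genes within a cluster can share reads in counting.

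**Figure D2:**
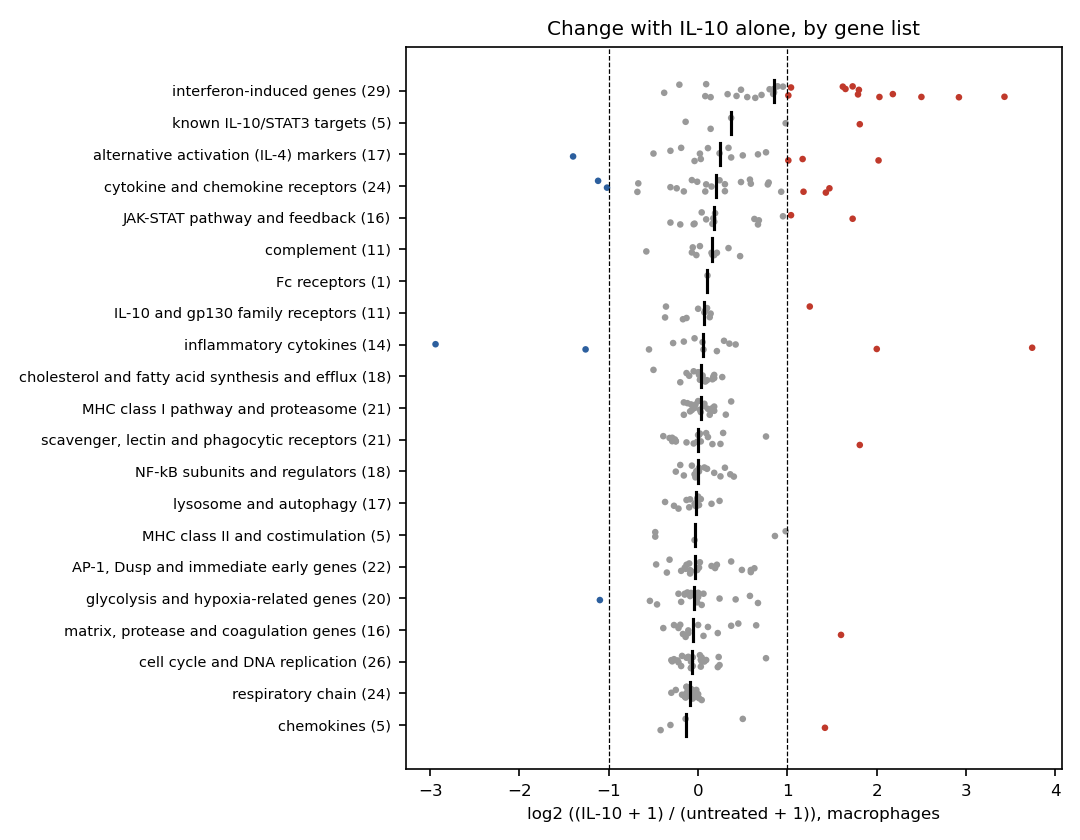
Log2 change with IL-10 alone in macrophages for each kept member of 21 gene lists, with the number of kept members after each name. Points are genes, red if raised and blue if lowered at least 2-fold, and black bars are list medians, the highest of which is 0.85 for interferon-induced genes.

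Other raised families also act in innate defence, and these were grouped by symbol after the values were seen. Of 6 caspases held, the 3 that cluster between chr9:5298517-5373032 were raised. Casp4, the intracellular LPS receptor, rose from 551.5 to 2054 (log2 change 1.90), Casp12 from 32.5 to 122 (1.88) and Casp1, which matures IL-1β, from 2246 to 4831.5 (1.10). Outside the cluster, Casp6 stood at 407 and 437. Of 4 Trim30 genes, members of an antiviral family, Trim30b rose from 35 to 150 and Trim30c from 15.5 to 45.5, with Trim30a at 1811.5 and 3243 and Trim30d at 419 and 613. Serpina3g, an intracellular protease inhibitor, rose from 89.5 to 329.5 (1.87), while its relative Serpina3n stood at 39 and 31. The remaining raised genes among the 20 with the largest change at high values were Tarm1, an activating receptor of myeloid cells, at 67.5 and 229, and Arid5a, an RNA-binding protein that stabilises cytokine transcripts, at 361.5 and 1130.

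Calls in the lists of inflammatory cytokines and of cytokine and chemokine receptors went in both directions, but all the lowered genes had values under 100. Of all kept genes under 100, 7.46% were raised and 9.94% lowered, beside 2.02% and 1.84% of all kept genes. Tnfsf14 (LIGHT), a TNF-family ligand, rose from 24 to 333, a log2 change of 3.74. Among 14 kept inflammatory cytokines it was raised with Il27, at 14 and 59, while Ltb (11 and 4) and Il12a (10.5 and 0.5) were lowered at very low values. The list's median was 0.06, with Tnf at 712.5 and 873 and Il10 itself at 10 and 13. Of 24 kept cytokine and chemokine receptors 3 were raised and 2 lowered, with a median of 0.20. Ccr1, a receptor for inflammatory C-C chemokines, rose from 2812 to 6390.5 (1.18). The related receptors Ccr2, at 965 and 1441, and Ccr3, at 50 and 87, lay short of the limit. Il2ra rose from 5.5 to 16.5, whereas Cxcr3 fell from 41.5 to 18.5 and Cxcr1 from 35.5 to 17. At a pseudocount of 10, Ltb (-0.58), Il12a (-0.97), Il2ra (0.77), Cxcr3 (-0.85) and Cxcr1 (-0.75) no longer passed the limit. Of 5 kept chemokines Cx3cl1 alone was called, at 6.5 and 19, and the list's median was -0.14 with Ccl22 at 175.5 and 141.

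Lists of cytokine receptors and of JAK-STAT genes, both wider than the IL-10 pathway itself, gave 3 raised and 0 lowered genes. Over all kept genes 2.02% were raised and 1.84% lowered. The IL-10 receptor chains and Tyk2 were not among the raised genes. The list named for IL-10 and gp130 family receptors had 11 kept genes. Il13ra1, a subunit of the IL-4 and IL-13 receptor, was the 1 called, rising from 1131.5 to 2689 (log2 change 1.25). The IL-10 receptor chains stood at 1843.5 and 1682.5 for Il10ra and at 6351.5 and 5662 for Il10rb. The interferon receptors gave 4006.5 and 3111 for Ifngr1, 3791.5 and 3790 for Ifngr2, 4179.5 and 4428.5 for Ifnar1, and 5365.5 and 5769.5 for Ifnar2. Log2 changes of Il11ra1, Il20rb, Il27ra and Il2rg were -0.37, 0.13, 0.07 and 0.14, and the list's median was 0.07. In the list of JAK-STAT pathway and feedback genes, 2 of 16 kept genes were raised, among them Stat2, 0 were lowered, and the median was 0.18. Jak3 stood just short of the limit at 727.5 and 1409.5 (0.95). Pim1, a kinase induced by STATs, stood at 1243.5 and 1995 (0.68), the phosphatase Ptpn1 at 4185 and 6487 (0.63), and the feedback inhibitor Socs2 at 89.5 and 143 (0.67). The rest lay between -0.31 for Stat4 and 0.19 for Pim3, with Tyk2 at -0.05, Stat6 at 0.09, Socs7 at -0.04, Cish at 0.18, Ptpn6 at 0.17, Ptpn11 at 0.04, Pim2 at -0.20 and Bcl6 at 0.16.

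The table held 5 of 18 genes in the list of known IL-10 and STAT3 targets, and the others were not analysed here. Of these, 1 was raised, and the median was 0.37. Cd163, the haemoglobin scavenger receptor, rose from 24.5 to 88.5 (log2 change 1.81). Sbno2, a corepressor induced by STAT3, stood at 2506 and 4952 (0.98) and passed the limit once values were centred (1.02). Hmox1, which degrades haem, stood at 18905.5 and 24436.5 (0.37), the lipid phosphatase Inpp5d at 6332 and 6964 (0.14), and the protease inhibitor Slpi at 1940.5 and 1763.5 (-0.14).

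Genes used as markers of IL-4 activation moved in part. Of 17 kept, 3 were raised and 1 lowered, with a median of 0.24. Arg1, which consumes arginine, rose from 3358.5 to 7570 (log2 change 1.17), Tgm2, a transglutaminase, from 8160.5 to 16441 (1.01), and Chi3l1 from 9.5 to 41.5, whereas Mgl2 fell from 13.5 to 4.5. Chi3l3, at 1908 and 1853, and Retnla, at 93.5 and 118.5, lay short of the limit, and the mannose receptor Mrc1 stood at 8357.5 and 14121.5 (0.76). In the matrix and protease list 1 of 16 kept genes was raised and the median was -0.06. It was Tgfbi, a secreted matrix protein, which rose from 6824 to 20624 (1.60), while Mmp12 stood at 158630 and 136530.5 and Fn1 at 86548.5 and 111944. Of 21 kept scavenger, lectin and phagocytic receptors, Cd163 was the 1 called and the median was 0.00, with Marco at 2002 and 2009.

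Other programmes of the macrophage showed few or no calls. Of 20 kept glycolysis and hypoxia-related genes, Ankrd37 fell from 28 to 12.5 and the others were not called, with a median of -0.05. None was called among 18 NF-kB subunits and regulators (median 0.00), 22 AP-1, Dusp and immediate early genes (-0.04), 21 genes of the MHC class I pathway and proteasome (0.03), 26 cell cycle genes (-0.07), 24 respiratory chain genes (-0.09), 18 genes of cholesterol and fatty acid metabolism (0.03), 17 lysosome and autophagy genes (-0.02), 11 complement genes (0.15), 5 MHC class II and costimulation genes (-0.04) and the 1 Fc receptor, Fcgrt (0.10). Examples are Nfkb1 at 2374.5 and 2389, Gapdh at 25551 and 23943.5, Fos at 1817 and 1718, and Cd40 at 264.5 and 523.5 (0.98). These counts stand beside 2.02% raised and 1.84% lowered over all kept genes, so that 0 calls in a list of about 20 genes is not distinctive.

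Lowered genes were fewer and lower in value. At a value of at least 100 the 5 lowered genes were Hpgd, Gpr162, Fam55d, Acpp and Mamdc4. Hpgd, the enzyme that inactivates prostaglandins, fell from 105 to 39 (log2 change -1.41). Gpr162, an orphan receptor, fell from 115 to 43 (-1.40), Fam55d from 149.5 to 71.5 (-1.05), the acid phosphatase Acpp from 374 to 185 (-1.01) and Mamdc4 from 177 to 88 (-1.0). The next 15 at that level did not pass the limit and lay between -0.99 and -0.78. They included Fbxo32, a ubiquitin ligase subunit of atrophy, at 2415 and 1343 (-0.85), the caveolin Cav2 at 1288 and 697 (-0.88), Pdcd4, an inhibitor of translation, at 265.5 and 141.5 (-0.90), and the kinase Rps6ka5 at 110 and 59 (-0.89). The others were Ankrd32, Ypel2, Clec2i, Col15a1, Kctd12b, Nat8l, Slc9a4, Unc119, Zfyve28, Clec1b and Pgm2l1.

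Genes close to the limit show how fine the call is. Just inside were Bmp7 at 10 and 21 and Gfra1 at 5.5 and 12, and just outside were Kcnk13 at 916 and 1826 and Ly6a at 117.5 and 235. In the other direction Celsr1 at 48 and 23.5 and C030019I05Rik at 11 and 5 were inside, and Ankrd32 at 255.5 and 128 and Klhl38 at 77.5 and 38.5 outside.

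A second pair of macrophage groups, LPS with and without prior IL-10, shares no library with the comparison above. IL-10 raised 2.94% and lowered 4.3% of the genes kept there. Of the 120 genes raised by IL-10 alone, 101 were kept there, of which 28 were raised (27.7%) and 14 lowered. Among genes with a value of at least 100 in the comparison without LPS, 12 of the 42 were raised again (28.6%) and 2 lowered, whereas 1.41% of all genes at that level were raised and 1.35% lowered. Under 100, 16 of the 59 kept there were raised (27.1%) beside 9.04% of genes at that level, and 12 were lowered beside 14.4%. Of the 109 lowered genes 83 were kept, of which 24 were lowered again (28.9%) and 11 raised. Under 100, 21 of 78 lowered genes were lowered again (26.9%) beside 14.4%. Across 4883 genes with a value of at least 100, the log2 changes with IL-10 alone and with LPS had a Pearson correlation of 0.31 and a Spearman correlation of 0.21, which describes genes of the same libraries and not replicates.

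The raised genes differed in their values with LPS, and genes among the 12 raised again are given first. Tnfsf14 stood at 4 with LPS and at 47.5 with IL-10 and LPS, a log2 change of 3.28. Lrg1, a secreted leucine-rich glycoprotein, rose from 45 to 320.5 with IL-10 alone (2.81) and from 36 to 451.5 with LPS (3.61). Adora3, the adenosine A3 receptor, rose from 39.5 to 125 (1.64) and from 10 to 296.5 (4.76). The kinesin Kif1a rose from 77.5 to 206.5 (1.40) and from 38 to 448.5 (3.53), and the tubulin-associated Tppp3 from 47 to 148 (1.63) and from 13 to 97 (2.81). Tgfbi stood at 3199.5 with LPS and 13273 with both (2.05), Ccr1 at 793 and 2901.5 (1.87), and Arg1 at 944.5 and 5187 (2.46). Sema6b, a transmembrane semaphorin that adjoins Lrg1 between chr17:56259103-56279766, rose from 293 to 687 (1.23) and from 93.5 to 326 (1.79). Trim30b and the kinase C substrate Plek were also among the 12, with Plek at 10991.5 and 22814.5 without LPS and at 70463.5 and 141711 with it. By the study's scheme the LPS groups were harvested at 8 h and the others at 4 h, so the values of the pairs stand side by side and untreated is not compared with LPS. IL-10 was thus added 8 h before harvest in the LPS pair and 4 h before it in the other pair.

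**Figure D3:**
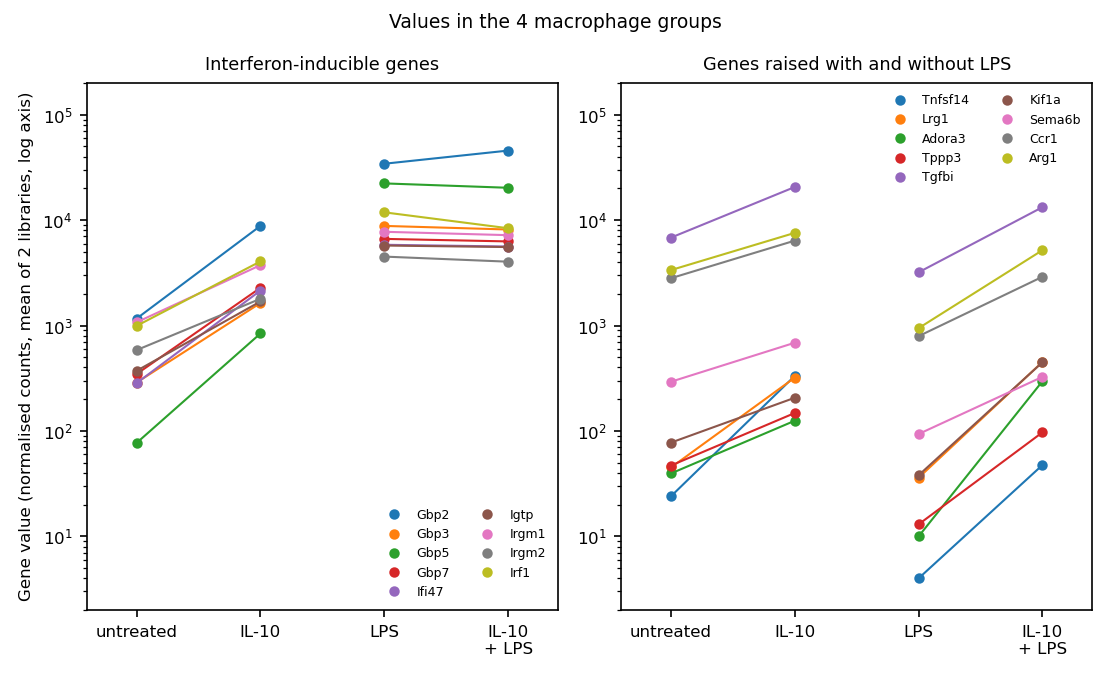
Values of 9 of the 15 interferon-inducible genes (left) and 9 of the 12 genes raised again with LPS (right) in the 4 macrophage groups. The axis is logarithmic, in normalised counts. Among genes not shown are Ifit2, which was lowered with LPS, and Tgtp2, with a log2 change of 0.78 there. Points are the authors' means of 2 libraries and lines join the groups compared. Genes in the left panel rise between untreated and IL-10. Between LPS and IL-10 with LPS their log2 changes run from -0.50 (Irf1) to 0.42 (Gbp2). The right panel rises in both.

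The interferon-inducible genes gave another picture. The 15 of them among the 42, a set formed after the values were seen, had a median log2 change of 2.03 with IL-10 alone and of -0.11 with LPS, where 0 were raised and 1, Ifit2, was lowered. For the other 27 the medians were 1.46 and 0.76, with 12 raised and 1, Serpina3g, lowered. Membership of the 15 was set by the interferon list and the GTPase symbols, so the 27 may hold further interferon-inducible genes. With LPS the log2 changes of these 27 ran from -1.14 to 4.76 and those of the 15 from -1.97 to 0.78, so the sets overlapped. Gbp5 stood at 22309 with LPS and 20276 with IL-10 and LPS, Gbp2 at 34270.5 and 45694, and Igtp at 5742 and 5553.5. The whole interferon list of 29 genes had a median of -0.23 there with 0 raised and 3 lowered, namely Ifit1 (-1.07), Ifit2 (-1.97) and Ifit3 (-1.18). With 1 value per group, the difference between the comparisons was not tested, and they differ in the time from IL-10 to harvest as well as in LPS.

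**Figure D4:**
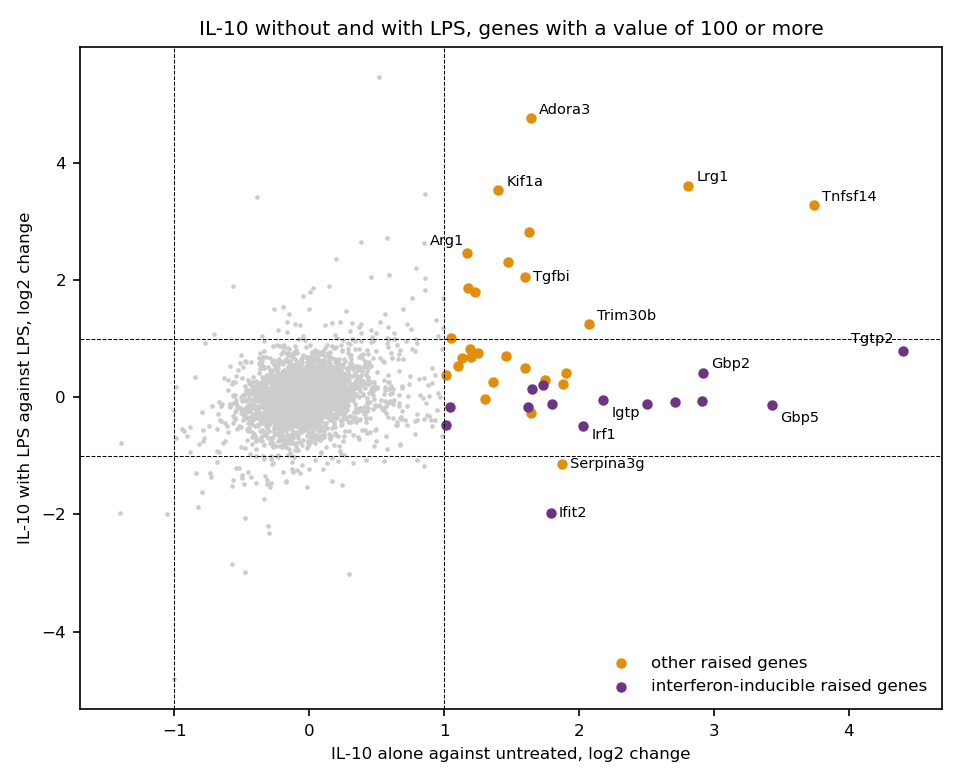
Log2 change with IL-10 alone against untreated (horizontal axis) and with IL-10 and LPS against LPS (vertical axis) in macrophages. Grey points are genes with a value of at least 100, coloured points are the 42 raised genes, and dashed lines mark 2-fold: the 15 interferon-inducible genes (purple) lie between -1.97 and 0.78 on the vertical axis, and 12 of the 27 others (orange) lie above the upper line.

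Some genes changed in opposite directions. Of the 14 that rose with IL-10 alone and fell with LPS, those with the largest rise were 4932411N23Rik and Rab11b-ps2, both listed at 0 untreated, Olfr56, Il27 and Serpina3g. Il27, which encodes a subunit of interleukin 27, stood at 14 untreated and 59 with IL-10, and at 5752.5 with LPS and 2087.5 with both. Serpina3g stood at 2460.5 with LPS and 1112.5 with both (-1.14), and Ifit2 at 95036.5 and 24330.5. Of the 11 genes that fell and then rose, the 5 with the largest fall were Fxyd2, Klre1, Msh5, Cldn1 and Faah. All 5 had values of 25 or less in every macrophage group. Genes lowered in both at a value of at least 100 were Hpgd (30.5 with LPS and 7 with both), Fam55d (43 and 10) and Mamdc4, which stood at 27 with LPS and was listed at 0 with both.

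In other cell types IL-10 without LPS was given for the same 4 h at the same dose, to separate cells, and in neutrophils after overnight GM-CSF. In neutrophils it raised 1.12% and lowered 0.652% of kept genes. Of the 42 genes, 40 were kept there, of which 18 were raised (45%) and 0 lowered, while 0.819% of genes at that level in macrophages were raised. In sDCs, where 1.46% were raised and 0.723% lowered, 13 of the 42 were raised (31%) and 0 lowered. In mast cells, where 2.14% were raised and 2.67% lowered, 6 of 39 were raised (15.4%) and 0 lowered. The median log2 change of the 42 was 0.77 in neutrophils, 0.30 in mast cells and 0.72 in sDCs. Of the 78 raised genes with lower values, 6 of 52 kept were raised and 0 lowered in neutrophils, where 2.12% of genes at that level were raised. In sDCs 3 of 48 were raised and 1 lowered, beside 2.9% and 2.4% of such genes. In the mast cell groups 2 of 45 were raised and 7 lowered, beside 3.75% and 9.08%. Of the 5 lowered genes, 2 were lowered in mast cells, Gpr162 and Fam55d, and 1, Mamdc4, was raised there from 7.5 to 17, while 1.15% of genes at that level were lowered and 1.61% raised. None of the 5 was called in neutrophils, where 4 were kept, or in sDCs.

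Sema6b was the 1 gene raised in all 4 cell types, and 0 genes were lowered in all 4. Its values without and with IL-10 were 288.5 and 924 in neutrophils, 175 and 856 in mast cells, and 31.5 and 123.5 in sDCs. Some of the 120 raised genes were also raised in at least 2 other cell types. Among them were Tgtp2, Igtp, Zbp1 and Rtp4 in neutrophils and sDCs, and Lrg1, Trim30b and Il13ra1 in neutrophils and mast cells. Kif1a was raised in neutrophils and in sDCs, where it rose from 27.5 to 265.

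The whole interferon list gave 11 raised of 28 kept in neutrophils (median log2 change 0.78), beside 1.12% of all genes kept there. For sDCs the count was 4 of 29 (0.27), beside 1.46%. Mast cells gave 0 of 24 (0.06), beside 2.14%, so that 0 calls in a list of this size is not distinctive. Of the 15 genes chosen for their rise in macrophages, 12 were raised in neutrophils, with a median log2 change of 1.55. The sDC groups gave 4 of 15 (0.61). The mast cell count was 0 of 14 kept (0.10), which is likewise not distinctive beside 2.14%. Gbp2 stood at 78 and 1484 in neutrophils, at 439.5 and 541.5 in mast cells, and at 16587 and 15813 in sDCs. With LPS, IL-10 lowered 13 of the 15 in neutrophils (median -1.34), where 3.71% of kept genes were lowered. It lowered 11 of 15 in mast cells (-1.15, beside 4.55% of genes) and 1 of 15 in sDCs (-0.71, beside 2%). In neutrophils Gbp2 stood at 2595 with LPS and 610 with both, whereas in macrophages it stood at 34270.5 and 45694. The cell types differ in source and preparation, and the differences between them were not tested.

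**Figure D5:**
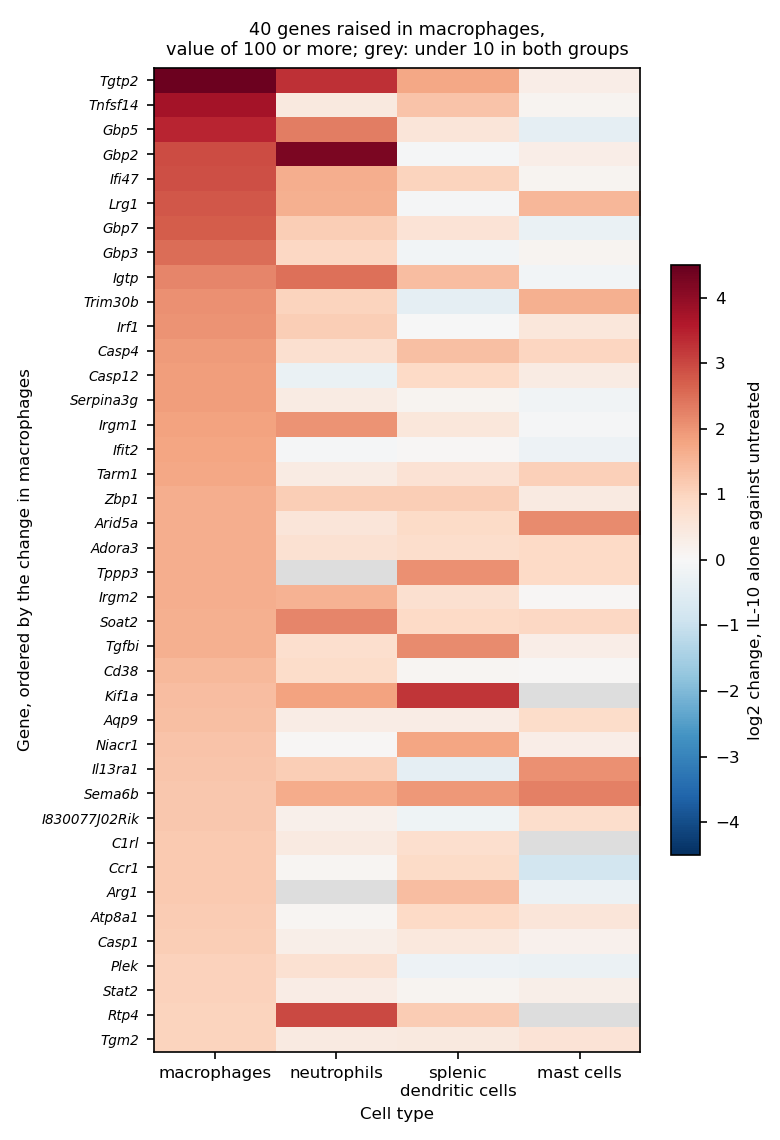
Log2 change with IL-10 alone against untreated for 40 of the 42 genes raised in macrophages with a value of at least 100 (rows), in 4 cell types (columns). Red is higher and blue lower with IL-10, and grey marks genes under 10 in both groups of that cell type, and Sema6b is red in all 4 columns.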

How the data were processed

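The authors aligned the reads of each library to Ensembl transcripts (mm9) with RSEM 1.2.1 and bowtie 0.12.9, and normalised tag counts for GC content with EDASeq. Per the labels and the methods, the deposited score of a transcript is the mean of 2 libraries of a group, in normalised counts, and no value per library was used. Values are multiples of 0.5, and all 18 columns share the same maximum, so that changes in total RNA are not visible. The copy used holds 17015 complete lines and 1 broken line. Of these, 22 (0.129%) lack a gene name, which left 16993 transcripts (6509 genes), so that other genes were not analysed here, and 1 sample without a column was not analysed here.

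Transcripts were summed per gene with Python 3.11.15 and pandas 2.3.3. Genes with either value at least 10 were kept, log2 changes were taken on log2(value + 1), which understates the change of low genes, and 2-fold was called. No test was possible on 1 value per group. The depth per library is unknown from the table, and no counting interval can be given. The procedure was checked on a simulated table with planted changes larger than the limit, without the lowest genes and with counting noise only. That check does not cover 2-fold calls at low values or the spread between mice. Positions are from GENCODE vM1 (NCBIM37) and promoter sequences from RefSeq (GRCm38.p6), the first listed window per gene.

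The comparison, the gene lists and the naming rules were chosen with earlier results of these data known. Named are the 20 genes in each direction with the largest change at a value of at least 100, all members of the IL-10 target, JAK-STAT and receptor lists, called members of other lists with up to 4 uncalled ones, genes changed the same way with LPS at that level or in all 4 cell types, the 5 largest in each direction that changed oppositely with LPS, and those nearest the limit. Families by symbol, genes named as such and the ISRE motif were added after the values were seen. Some genes that these rules name are not reported here. Alternatives were the minimum value, the pseudocount, single transcripts, other fold limits and centring.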

Additional observations from a re-analysis of the deposited data

How the results depend on the processing

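No paired analysis was possible because the table gives 1 mean per group, and for the same reason leaving out a replicate and fitting the replicate block could not be run. The counts of genes raised, lowered, raised again with LPS and lowered again with LPS were 120, 109, 28 and 24, and each stayed within 1.5 times at a pseudocount of 0.1 (124, 114, 28 and 26) and after centring (125, 96, 30 and 20). They were 52, 17, 12 and 1 at a minimum value of 50, 42, 5, 10 and 0 at a minimum of 100 chosen after seeing the data, and 218, 189, 59 and 58 with no minimum. A pseudocount of 10 gave 75, 46, 17 and 6, a 1.5-fold limit 280, 271, 87 and 84, and a 3-fold limit 64, 53, 10 and 8. Single transcripts gave 1285, 1250, 293 and 260, which count isoforms and not genes. At a pseudocount of 10, 75 of the 120 raised genes were still raised and 46 of the 109 lowered genes still lowered, and among genes with a value of at least 100 these were 42 of 42 and 2 of 5. Of 131 named genes, 24 lost their call at a pseudocount of 10, among them Acpp (-0.98), Fam55d (-0.97) and Mamdc4 (-0.93), and 3 lost it and 1, Sbno2, gained it after centring. No called gene among them changed sign, and centring turned the sign of 2 that were not called, Ifngr2 (to 0.04) and Socs7 (from -0.04 to 0.00). Low values limit the calls, since 131 of the 405 genes with a value from 10 to 30 passed 2-fold in either direction.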

Other observations

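Some genes chosen after their values were seen gave smaller or lower-valued changes with IL-10 alone than with LPS. Nos2, the inducible nitric oxide synthase, stood at 19 untreated and 65 with IL-10, and at 6709 with LPS and 35477.5 with both (log2 changes 1.72 and 2.40). March1, a ubiquitin ligase that removes MHC class II from the surface, stood at 1610.5 and 2921 without LPS (0.86) and at 2053 and 7330.5 with it (1.84). Pfkfb3, which drives glycolytic flux, gave 0.58 and 2.71 on the log2 scale, and the phosphatase Dusp7 0.01 and 1.79. Jak3 stood near the limit in both, at 0.95 and 1.04. In the other direction Tnf, the main inflammatory cytokine, stood at 712.5 and 873 without LPS (0.29), and at 185338 with LPS and 22865 with both. The first of these is the highest value that the 18 columns share, so no log2 change is given. Icosl gave -0.48 and -2.98 and Lif -0.55 and -2.68. The differences between the comparisons were not tested, and the time from IL-10 to harvest also differs between them.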
